A study of Mus musculus with 9 samples.

Results

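The genes described here encode the proteins of the cytosolic ribosome, those of the large subunit (Rpl) and of the small subunit (Rps). They were taken by symbol alone: every name that starts with Rpl or Rps followed by a digit, with Rplp0, Rplp1 and Rplp2 of the ribosomal stalk added. The rule used no measured value, and it left out 10 names of S6 kinase genes (Rps6k) and 3 other names, Rpl34-ps1, Rps19-ps3 and Rps19bp1. It gave 84 of the 22977 genes with a single locus and a usable estimate, 52 for the large and 32 for the small subunit. Of the 84, 76 are the standard subunit genes. The other 8 are copies or relatives of one of them: Rpl10l, Rpl22l1, Rpl36al, Rpl39l, Rpl3l, Rpl7l1, Rps27l and Rps4y2.

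RNA was sequenced from 9 libraries, 3 in each of 3 groups, of mouse splenic B cells taken from germinal centers with and without the transcription factor Foxo1. C57BL/6 mice received equal numbers of Foxo1(+/+) and Foxo1(f/f) B cells, which all carried ERT2cre(KI/+), a recombinase switched on by tamoxifen, and B1-8hi(KI/+), a receptor for the hapten NP. The mice were immunized with NP-CGG in alum and took tamoxifen by mouth on days 7 to 9, and cells were sorted on day 12, so recombinase, tamoxifen and receptor were common to all groups. The light zone group (LZ, high CD86 and low CXCR4) and the dark zone group (DZ, low CD86 and high CXCR4) were Foxo1(+/+) CD45.1/1 cells, and the Foxo1-deficient group was Foxo1(f/f) CD45.1/2 cells sorted with no zone gate. The labels place the sorted Foxo1(f/f) cells in a CD45.2-negative gate, which their CD45.1/2 genotype does not match. They give neither the promoter that drives ERT2cre, nor the ages of the mice, nor whether libraries of a group came from separate mice, so the p-values cover library-to-library spread, which may be technical.

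Ribosomes are built from ribosomal RNA and one copy of nearly every ribosomal protein, so these genes are transcribed at high and matched levels in most cells. Their mRNAs start with a terminal oligopyrimidine (TOP) stretch of C and U, through which the kinase complex mTORC1 and the RNA-binding protein Larp1 set how strongly they are translated, a step that RNA levels do not show. In the germinal center, B cells selected by T cells in the light zone switch on Myc and mTORC1, both drivers of ribosome production, and then divide in the dark zone.

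The start of the transcript is shown first because the TOP stretch is the feature these mRNAs are known to share. RefSeq promoters (GRCm38.p6) were matched by symbol for 62 of the 84 genes, 10 of them with more than 1 start, which gave 74 promoters. Each window below holds the 20 bases before the annotated start and the 10 bases from it, 5′ to 3′ on the gene's strand, and capitals mark its longest unbroken run of C and T. The first 2 have the longest runs among genes with 1 annotated start, the next 4 are genes described further on, and the last 3, of the abundant Rpl41, Rps4x and Rpl10, have short runs; all 9 were picked after the runs were computed.
Rpl7a (chr2:26910787-26910816, plus strand): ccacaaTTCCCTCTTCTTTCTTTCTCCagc
Rpl35 (chr2:39005122-39005151, minus strand): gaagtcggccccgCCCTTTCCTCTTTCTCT
Rpl28 (chr7:4792945-4792974, plus strand): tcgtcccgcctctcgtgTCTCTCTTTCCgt
Rplp2 (chr7:141447631-141447660, plus strand): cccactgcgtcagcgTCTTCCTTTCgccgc
Rpl14 (chr9:120571497-120571526, plus strand): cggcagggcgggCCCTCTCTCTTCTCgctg
Rpl22l1 (chr3:28805488-28805517, plus strand): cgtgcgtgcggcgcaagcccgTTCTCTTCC
Rpl41 (chr10:128549159-128549188, minus strand): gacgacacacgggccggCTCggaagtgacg
Rps4x (chrX:102189382-102189411, minus strand): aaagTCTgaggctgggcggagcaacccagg
Rpl10 (chrX:74270796-74270825, plus strand): CTatggttgttacagtggaagataggccgc

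The run of C and T was longer near the starts of ribosomal protein genes than near other starts. Its median length was 6 in the 74 windows against 4 in all 32851 windows of the table, and 29 of 74 windows (39.2%) held a run of at least 8 against 12.6% of all. The letters CTTTCC, read on the sense strand within the window, occurred in 10 of 74 (13.5%) against 1.50%, and since CTTTCC is itself C and T, a window such as that of Rpl28 counts under both measures. In the whole promoter of 300 bases, read on both strands, CTTCCG, the core of ETS factor sites, occurred in 59.5% against 16.9%. AAGATGG, part of YY1 sites, occurred in 16.2% against 6.34%, and TATAAA, the TATA box, in 9.46% against 13.6%. These are matches of letters and were not tested as binding sites. The windows follow annotated starts and not starts measured in these cells. The median FPKM was 692 over 28 genes with a run of at least 8 and 684 over 34 genes with shorter runs. Gene means ranged from 3.63 to 1614 with a long run and from 0 to 1669 without. Genes with more than 1 start were placed by their longest run, and the difference was not tested. FPKM is a level per transcript length, relative to the fragments of the whole library, and can be set side by side between genes.

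Ribosomal protein mRNAs made up a large and even part of the mRNA in every library. Their share of the summed FPKM was 20.7%, 18.5% and 18.8% in LZ, 20.9%, 20.3% and 19.6% in DZ, and 20.5%, 18.7% and 17.1% in Foxo1-deficient libraries. The group ranges overlap, and the mean was 19.3% ± 1.17 for LZ, 20.3% ± 0.642 for DZ and 18.8% ± 1.69 for Foxo1-deficient cells (SD, n = 3). Among the 100 genes of highest FPKM in a library, 53 to 59 were ribosomal protein genes. The median level was taken over the 81 genes that could be tested. It stood at 809, 728 and 705 FPKM in LZ, at 770.0, 784 and 588 in DZ, and at 777, 703 and 619.7 in Foxo1-deficient libraries.

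Among the 84 genes, Rpl41 had the highest mean FPKM. It encodes a very short basic peptide of the large subunit. Its FPKM was 1938, 1723 and 1730.2 in LZ, 1702, 1667 and 1312 in DZ and 1868, 1644 and 1441 in Foxo1-deficient libraries. Every DZ library lay below every LZ library, while the Foxo1-deficient libraries overlapped both groups. Next came Rpl28 (mean over the 9 libraries 1614), Rps20 (1498), Rpl39, which lines the exit tunnel for the growing peptide (1468), and Rplp1 of the stalk (1376). Gm9846, an entry outside the rule at the locus of Rps27, had a mean of 2040, above that of Rpl41. Its uncertain estimate is described below. Of the 84 genes, 19 had a mean over 1000 FPKM, 38 between 500 and 1000, 13 between 200 and 500, 5 between 50 and 200, 4 between 10 and 50, and 5 under 10. The median of the gene means was 853 for the 32 small subunit genes and 564 for the 52 large subunit genes. The large subunit set holds most of the copies, among them Rpl10l, Rpl3l and Rpl39l at or near 0. These medians were not taken over standard genes alone. Of the 76 standard genes, 69 had a mean of at least 200.

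The 7 standard genes under 200 were Rpl15, Rpl22, Rps15a, Rpl26, Rpl30, Rpl34 and Rps27. Rpl15, a core protein of the large subunit, stood at 236, 191 and 186 in LZ, 201, 202 and 151 in DZ and 192, 179 and 156 in Foxo1-deficient libraries. Rps15a, a core protein of the small subunit, was lower at 59.7, 53.9 and 46.4 in LZ, 51.8, 52.5 and 42.4 in DZ and 63.3, 56.6 and 54.5 in Foxo1-deficient libraries. Rpl15 was highest in LZ library 1 and lowest in DZ library 3 with overlapping groups, and Rps15a was higher in every Foxo1-deficient than in every DZ library. Rpl22 is described with its copy, and the other 4 with the entries that share their loci.

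**Figure D1:**
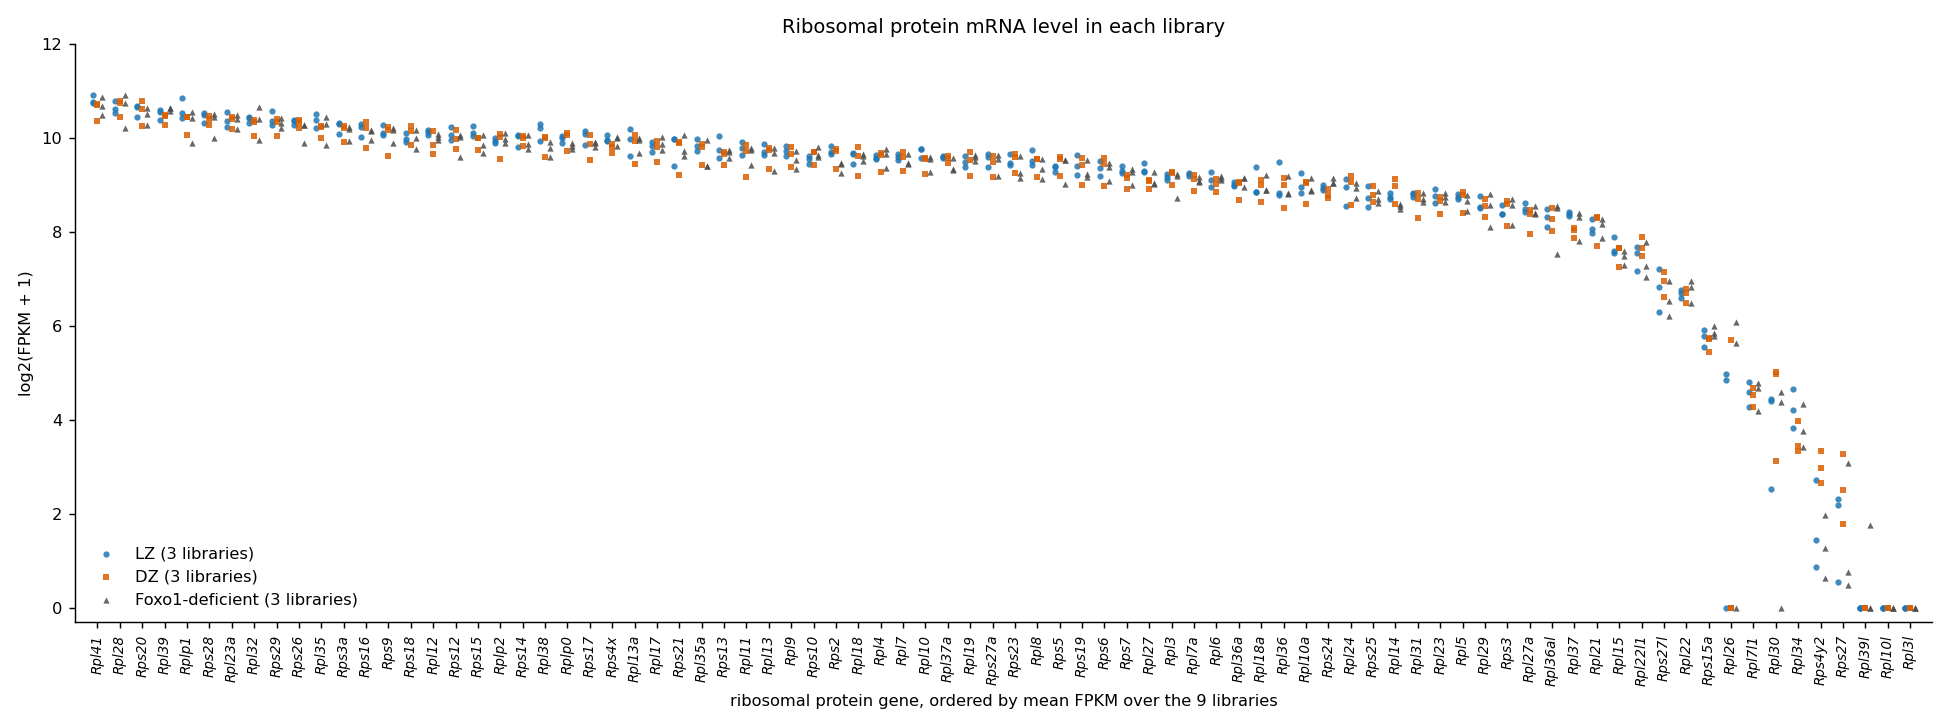
FPKM of 82 of the 84 ribosomal protein genes in each of the 9 libraries, as log2(FPKM + 1) on the vertical axis, with genes ordered by their mean FPKM along the horizontal axis and 1 point per library. Most genes form a flat band of overlapping groups, Rps15a and the genes to its right lie below it, and Rpl26 and Rpl30 are spread over several log2 units within groups.

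The order of the genes by level was nearly the same in every library. Spearman's rho between 2 libraries was taken over the 81 genes that could be tested. It was 0.967 to 0.988 for the 9 pairs within a group and 0.960 to 0.986 for the 27 pairs between groups. This describes agreement across genes, which are not independent. The genes also moved together from library to library. Over the 9 libraries, the median correlation of a gene with the median of the others was 0.81 on the log2 scale for the 81 genes that could be tested, and it was over 0.8 for 43 of them; the values of a library share its scaling. Their spread was small, with a median SD over the 9 libraries of 0.19 on the log2 scale against 0.42 for all 10004 tested genes. The median tested gene stood at only 5.50 to 8.01 FPKM per library, and genes of like level were not compared.

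The shared movement set single libraries apart, within every group. In DZ library 3, 78 of the 81 genes were below their own 9-library mean, with a median deviation of -0.28 log2. In Foxo1-deficient library 3 it was 69 of 81 (-0.21), and in LZ library 1 only 2 of 81 were below (0.18). The other 2 DZ libraries stood at 0.09 and 0.09, so DZ libraries differed among themselves by more than the groups did. DZ library 3 also had the lowest summed FPKM over all genes, 244707 against 294901 to 319905 in the other 8. Its share of summed FPKM in ribosomal protein genes, 19.6%, was inside the range of the others. The part that the scaling of that library has in the member values was not tested.

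**Figure D2:**
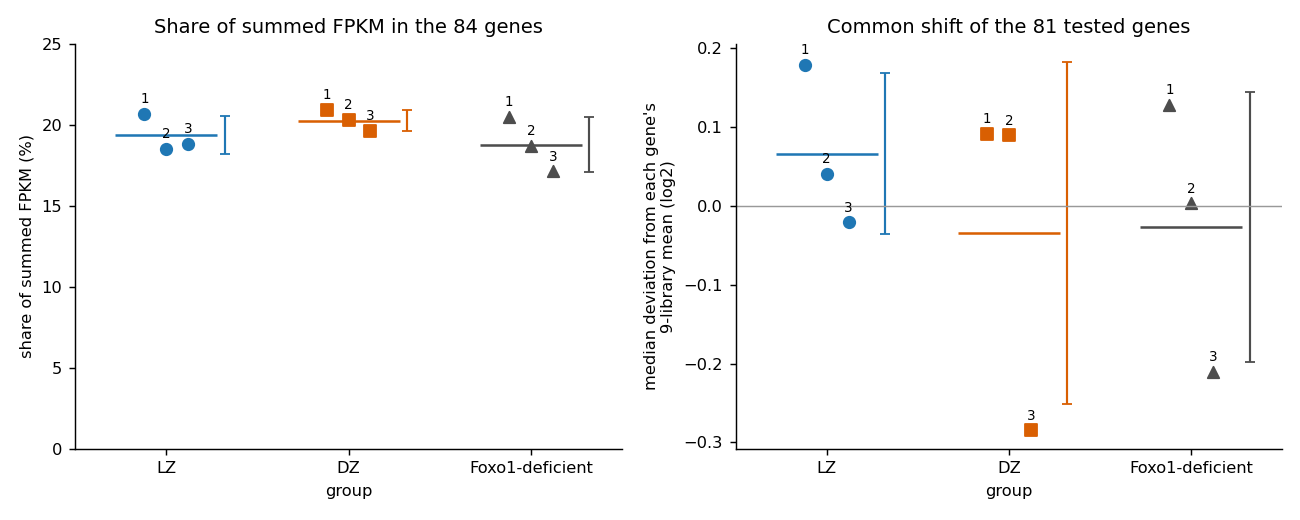
Left, share of the summed FPKM held by the 84 genes in each library (%); right, median deviation of the 81 tested genes from their own mean over the 9 libraries (log2), with numbers marking the replicate, horizontal lines the group mean and bars ± 1 SD (n = 3). The shares overlap between groups, and on the right DZ library 3 and Foxo1-deficient library 3 lie below the rest while LZ library 1 lies highest.

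The least coordinated genes were Rpl22l1 (correlation with the other members -0.22 over 9 libraries), Rpl26 (-0.17), Rps4y2 (-0.03) and Rps24 (0.18). Rps24, which takes part in the processing of small subunit RNA, had an SD over libraries of 0.13 log2. A small SD did not always go with a low correlation, since Rpl7 had an SD of 0.13 and a correlation of 0.88. High correlations were those of Rpl5 (0.98) and Rps6 (0.95).

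Foxo1 followed the labels, and the sums of several marker lists differed between groups. Foxo1 was 14.8, 18.7 and 22.1 in LZ, 24.5, 19.5 and 19.1 in DZ and 3.01, 1.79 and 0.808 in Foxo1-deficient libraries, lowest in the Foxo1-deficient group; the value is that of the whole gene. All 12 germinal center B cell markers were detected in each group, with a summed FPKM of 1714 to 2553 per library, and 11 T cell genes summed to 2.84 to 6.26 for LZ, 0.776 to 3.92 for DZ and 1.13 to 3.64 for Foxo1-deficient libraries, with Cd3e, Cd3g and Cd4 at 0 in all 9. Markers of myeloid and red cells were higher in the Foxo1-deficient libraries. The sum over 13 macrophage and dendritic cell genes was 75.1 to 194 there, with 2 genes at 0 (C1qb and Cd14), but 2.17 to 6.77 for LZ with 8 at 0, and 1.02 to 1.71 for DZ with 6 at 0. For 12 neutrophil genes it was 83.0 to 135 (Elane and Mpo at 0), against 3.19 to 5.82 for LZ (11 at 0) and 1.92 to 4.04 for DZ (10 at 0). For 10 erythroid and platelet genes it was 169.6 to 553 (Pf4 and Ppbp at 0), against 21.9 to 44.4 for LZ (5 at 0) and 13.0 to 21.7 for DZ (6 at 0). For 7 plasma cell genes the sum was 144 to 171 for LZ, 202 to 305 for DZ and 258 to 384 for Foxo1-deficient libraries. The ribosomal protein genes themselves summed to 48013 to 65909 per library, and the part of these other cells in the comparisons with Foxo1-deficient libraries was not tested. In bulk RNA, fewer cells of a type and less RNA per cell cannot be told apart.

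Between the zones, no ribosomal protein gene passed the test. The test was limma on log2(FPKM + 1) over 10004 genes, with all 9 libraries in 1 fit and p-values adjusted by the Benjamini-Hochberg method over all of them, and it covered 81 of the 84 genes. Rpl10l, Rpl3l and Rpl39l were too low to be tested. Of the 81, 0 rose and 0 fell in DZ against LZ at an adjusted p under 0.05, where 1.94% of all tested genes passed, 0.56% higher and 1.38% lower. At an unadjusted p under 0.05 it was 3 of 81, against 15.4% of all tested genes. The median log2 change was -0.10, beside -0.15 for all tested genes, with 66 genes below and 15 above 0. Above 0 were 18.5% of the 81 genes and 34.8% of all tested genes. The sign of the median turned under the 3 other scalings and without DZ library 3. The median was 0.09 after centring each library on its median gene, with 18 below and 63 above 0, where the median of all tested genes was 0.04. It was 0.03 after quantile normalization, 0.08 after rescaling to the other tested genes, and 0.03 when DZ library 3 was left out.

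The changes were small, with smaller SEs than those of most tested genes, which stood at much lower levels. In this fit the spread follows the level, and genes of like level were not compared. The median SE of a member's log2 change was 0.15, against 0.31 for all tested genes. The 95% interval of the DZ minus LZ change lay within 1 log2 unit of 0 for 76 of 81 genes, and within 0.5 for 48, against 48.4% of all tested genes within 1. The 5 with wider intervals were Rpl26, Rpl30, Rpl34, Rps27 and Rps4y2. The large subunit median was -0.11 (49 genes) and the small subunit median -0.08 (32 genes).

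In 6 genes every DZ library was below every LZ library, and in 0 genes above, against 17.1% and 5.16% of all tested genes. They were Rpl27, Rpl37, Rpl41, Rps15, Rps4x and Rps7. Rpl37, a large subunit protein, was 334, 324 and 344 in LZ, 263, 272 and 235 in DZ and 337, 318 and 223 in Foxo1-deficient libraries. Its DZ minus LZ change was -0.38 (95% interval -0.73 to -0.03, adjusted p = 0.280 by limma). Rpl27 was 627, 616 and 705 in LZ, 544, 553 and 483 in DZ and 620.2, 520.5 and 529 in Foxo1-deficient libraries, with a DZ minus LZ change of -0.30 (adjusted p = 0.272). In both genes the Foxo1-deficient libraries spread over values of both zones. These 2 and Rps4y2, described with the copies, are the 3 genes with an unadjusted p under 0.05.

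Against LZ, the Foxo1-deficient libraries likewise showed no member past the threshold. This comparison shares its LZ libraries with the one between the zones. Of 81 genes 0 rose and 0 fell, where 1.56% of all tested genes passed, 0.69% higher and 0.87% lower. An unadjusted p under 0.05 was reached by 2, against 13.4% of all. The median change was -0.10, beside -0.02 for all tested genes, and it stayed below 0 under the 3 other scalings tried (-0.09 to -0.03). In the main fit 65 genes were below and 16 above 0, so 19.8% were above 0 against 48.0% of all tested genes. The 95% interval lay within 1 log2 unit of 0 for 76 genes and within 0.5 for 52.

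The 2 genes with an unadjusted p under 0.05 were Rpl38, known for its part in the translation of Hox mRNAs, and Rps2, a core protein of the small subunit. Rpl38 was 1253, 983 and 1182 in LZ, 1038, 1022 and 768 in DZ and 963, 879 and 779 in Foxo1-deficient libraries. All Foxo1-deficient libraries were below all LZ libraries and within the DZ range, and the change against LZ was -0.38 (adjusted p = 0.306). Rps2 was 905, 809 and 836 in LZ, 844, 872 and 643 in DZ and 694, 703 and 613 in Foxo1-deficient libraries. Its Foxo1-deficient libraries lay below the LZ libraries, DZ library 3 lay among them, and the change against LZ was -0.34 (adjusted p = 0.300). In all, 5 genes had every Foxo1-deficient library below every LZ library, among them Rpl14, Rpl38, Rpl7a and Rps2, and 1 had them above (Rps24), against 9.37% and 8.12% of all tested genes.

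Against DZ, a comparison that shares its libraries with the other 2, 0 of 81 genes rose and 0 fell, where 2.85% of all tested genes passed, 2.1% higher and 0.75% lower. At an unadjusted p under 0.05 there were 3 (Rpl14, Rps24 and Rps4y2), against 16.3% of all. Of the 81 genes 41 were above and 40 below 0, and 50.6% were above 0 against 61.2% of all tested genes. The median change was 0.01, beside 0.12 for all tested genes, and it was negative under the 3 other scalings (-0.17 to -0.03). It was also negative without DZ library 3 (-0.12), Foxo1-deficient library 1 (-0.07) or Foxo1-deficient library 2 (-0.02). The 95% interval lay within 1 log2 unit of 0 for 77 genes and within 0.5 for 62. In 3 genes every Foxo1-deficient library was above every DZ library (Rpl39, Rps15a and Rps24) and in 1 below (Rps4y2), against 17.3% and 5.78% of all tested genes.

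Rps24 was 514, 489 and 477 in LZ, 481, 425 and 440.2 in DZ and 566, 528 and 523 in Foxo1-deficient libraries. The Foxo1-deficient libraries were the 3 highest of the 9, above those of both zones, by 0.27 log2 against DZ (adjusted p = 0.260) and 0.13 against LZ (adjusted p = 0.665). Rpl14, a large subunit protein, was 429, 457 and 418 in LZ, 506, 560.2 and 384 in DZ and 375, 386 and 358 in Foxo1-deficient libraries. Its Foxo1-deficient libraries were all below the LZ libraries, and they overlapped DZ library 3 while the other 2 DZ libraries were the highest of the 9. The change of -0.36 against DZ did not pass (adjusted p = 0.248). It was -0.54 and passed after centring each library on its median gene (adjusted p = 0.0160), and -0.49 and passed after rescaling to the other tested genes (adjusted p = 0.0400). Under quantile normalization it was -0.39 with an adjusted p of 0.0553, and Rpl14 was singled out after these values were seen.

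**Figure D3:**
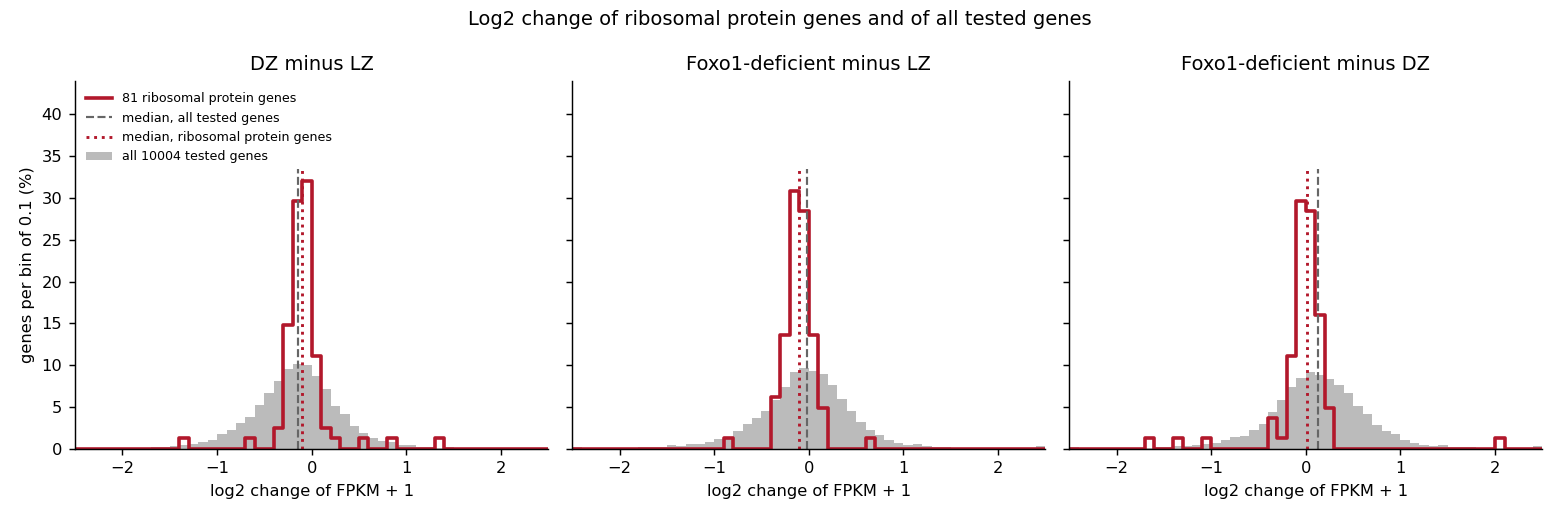
Log2 change of FPKM + 1 in the 3 comparisons, as the percentage of genes in bins of 0.1, for the 81 tested ribosomal protein genes (line) and all 10004 tested genes (grey bars), with changes beyond 2.5 counted in the outermost bins and vertical lines at the medians. The ribosomal protein genes form a narrow peak near 0 in each comparison, and the few genes far from it are Rpl26, Rpl30, Rpl34, Rps27 and Rps4y2.

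No ribosomal protein gene with a known special role passed the test either. Rplp0, Rplp1 and Rplp2 form the stalk that recruits elongation factors. Rplp0 was 1055, 948 and 1019 in LZ, 1100.5, 1062 and 839.5 in DZ and 955, 905 and 874 in Foxo1-deficient libraries, with a DZ minus LZ change of -0.02 (95% interval -0.30 to 0.26). Rplp1 was 1849, 1473 and 1377 in LZ, 1401, 1385 and 1067 in DZ and 1384, 1506 and 946 in Foxo1-deficient libraries, and Rplp2 was 1026, 978 and 955 in LZ, 1037, 1089.7 and 754 in DZ and 1096, 1013 and 954 in Foxo1-deficient libraries. The 3 groups overlapped for Rplp0, Rplp1 and Rplp2, and the smallest adjusted p of these in any comparison was 0.524, for Rplp1 in Foxo1-deficient against LZ libraries.

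Rpl5 and Rpl11 bind the ribosome's 5S RNA and, when unassembled, the p53 ligase Mdm2. Rpl5 was 447, 426 and 415 in LZ, 459, 444 and 336 in DZ and 441, 404 and 347 in Foxo1-deficient libraries. Rpl11 was 965, 880.3 and 801 in LZ, 917, 839 and 578 in DZ and 878, 863 and 690.3 in Foxo1-deficient libraries. For both, DZ library 3 was the lowest of the 9 and the groups overlapped. The DZ minus LZ change was -0.07 for Rpl5 (95% interval -0.39 to 0.26) and -0.20 for Rpl11 (95% interval -0.60 to 0.19).

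Rps6 is the substrate of the S6 kinases downstream of mTORC1. It was 728, 653 and 581 in LZ, 696, 757 and 506 in DZ and 707, 667 and 542 in Foxo1-deficient libraries. Its changes were -0.02 from LZ to DZ (95% interval -0.39 to 0.36), -0.04 in Foxo1-deficient cells against LZ and -0.02 against DZ, all with overlapping libraries. Rps19, the gene most often mutated in Diamond-Blackfan anemia, was 802, 682 and 589.6 in LZ, 763, 687 and 509 in DZ and 742, 600.01 and 578 in Foxo1-deficient libraries, with a DZ minus LZ change of -0.09. Rpl10, which joins the large subunit late in its maturation, was 868, 867 and 757 in LZ, 752, 763 and 601 in DZ and 777, 746 and 619.7 in Foxo1-deficient libraries. Its change was -0.24 in DZ and -0.22 in Foxo1-deficient cells, both against LZ, and neither passed (adjusted p = 0.467 and 0.530). Rps3, which lies at the mRNA entry channel, and Rps27a, made as a fusion with ubiquitin, had means over the 9 libraries of 355 and 717, with DZ minus LZ changes of 0.01 and -0.11. Rpl3, at the catalytic centre, had a mean of 564 and a change of 0.00. Rps10 had the most positive change against LZ in Foxo1-deficient cells after Rpl26, 0.15 (adjusted p = 0.659), with libraries of 785, 694 and 750.03 in LZ, 837, 837 and 689 in DZ and 896, 797 and 775 in Foxo1-deficient libraries, which overlap.

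The 8 copies and relatives lay at very different levels, and none of the 5 that could be tested passed. Rpl22 and Rpl22l1 are a pair in which the copy can stand in for the standard gene, and Rpl22 has a known part in lymphocyte development. Rpl22 was 108, 103 and 95.8 in LZ, 103, 110.3 and 88.5 in DZ and 123, 113 and 88.7 in Foxo1-deficient libraries, while Rpl22l1 was 203, 188 and 143 in LZ, 179.5, 238 and 203 in DZ and 130.1, 154 and 219.8 in Foxo1-deficient libraries. The copy was the higher of the pair in all 9 libraries, at 149% to 188% of Rpl22 (LZ), 174% to 229% (DZ) and 106% to 248% (Foxo1-deficient), ranges that overlap. Its changes did not pass in any comparison (adjusted p = 0.687, 0.877 and 0.487). Within the Foxo1-deficient group Rpl22l1 was highest in library 3, where 69 of the 81 tested members were below their own mean, and over all 9 libraries it was highest in DZ library 2.

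Rps27l, known as a p53-inducible relative of Rps27, was 148, 114 and 77.5 in LZ, 141, 124 and 97.2 in DZ and 91.9, 124 and 73.4 in Foxo1-deficient libraries, with overlapping groups. Rpl36al was 319.8, 360.5 and 273 in LZ, 311, 365 and 259 in DZ and 375, 363 and 185 in Foxo1-deficient libraries, which is 32.6% to 73.4% of the level of Rpl36a over all groups, and Foxo1-deficient library 3 was the lowest. Rpl7l1, a nucleolar relative of Rpl7, was 23.4, 27.0 and 18.5 in LZ, 22.2, 24.8 and 18.5 in DZ and 26.8, 24.7 and 17.2 in Foxo1-deficient libraries, between 2.42% and 3.56% of Rpl7 in every library. Rpl10l and Rpl3l, known from testis and from muscle, were listed at 0 in all 9 libraries. Rpl39l, also known from testis, was listed at 0 in 8 libraries and at 2.42 in Foxo1-deficient library 1. The tables give no counts, so no detection limit can be set for these 3.

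Rps4y2 is named Rps4l and classed as a transcribed pseudogene in RefSeq, and its locus on chromosome 6 (148303177 to 148304118, mm9) lies inside that of Tmtc1. It was 5.63, 1.72 and 0.848 in LZ, 9.11, 5.31 and 6.86 in DZ and 1.43, 0.564 and 2.93 in Foxo1-deficient libraries. The DZ libraries were higher than all Foxo1-deficient libraries and overlapped LZ library 1. The change was -1.69 in Foxo1-deficient against DZ libraries (SE 0.49, adjusted p = 0.104) and 1.30 in DZ against LZ libraries (adjusted p = 0.231), the smallest adjusted p of any member in each of these comparisons. Its level was at most 1.02% of that of Rps4x, the gene it resembles, and the sources used here do not give how reads of both were told apart.

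The 4 lowest standard genes, Rpl26, Rpl30, Rpl34 and Rps27, each share their locus in the tables with a second entry, and no other member does so. Rpl26, a protein near the exit tunnel, lies on chromosome 11 from 68715067 to 68718036 (mm9), where Gm15772 is also listed. Rpl26 was 0.00124, 27.7 and 30.5 in LZ, 51.4, 0.00116 and 0.00107 in DZ and 0.00109, 48.7 and 66.6 in Foxo1-deficient libraries. It was near 0 in 4 libraries, at least 1 in each group, and between 27.7 and 66.6 in the other 5. Gm15772 was 1070.3, 878 and 935 in LZ, 779.6, 900.3 and 683 in DZ and 977, 856 and 711 in Foxo1-deficient libraries, the level of a standard member, and Rpl26 made up 2.81% of the pair. The authors' tables give Gm15772, and Gm9846 below, the status LOWDATA in all 9 libraries, which Cufflinks gives to loci too complex or too thinly sequenced for its estimate, so their levels and the sums that use them are uncertain. A high second entry was also listed for Rpl30 with Gm12191 on chromosome 15 (34370262 to 34373031), where Rpl30 made up 2.03%, for Rpl34 with Rpl34-ps1 on chromosome 3 (130429748 to 130433226), 1.38%, and for Rps27 with Gm9846, also on chromosome 3 (90016588 to 90017570), 0.177%.

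Rpl30 was 21.0, 20.4 and 4.77 in LZ, 30.6, 31.7 and 7.72 in DZ and 23.2, 19.8 and 0.00034 in Foxo1-deficient libraries, beside 1086, 838 and 837 in LZ, 859.8, 863 and 724 in DZ and 931, 878 and 646 in Foxo1-deficient libraries for Gm12191. Rpl34 was 13.2, 24.5 and 17.6 in LZ, 14.9, 9.15 and 9.96 in DZ and 19.4, 12.6 and 9.77 in Foxo1-deficient libraries, beside 1117, 1091 and 796 in LZ, 1178, 1003 and 988 in DZ and 1179, 1063 and 941 in Foxo1-deficient libraries for Rpl34-ps1. The next pair is the most uneven. Rps27 was 4.00, 0.475 and 3.58 in LZ, 2.48, 8.71 and 4.74 in DZ and 7.52, 0.417 and 0.718 in Foxo1-deficient libraries, beside 2192, 1747 and 2023 in LZ, 1848, 2047 and 1566 in DZ and 2417, 2263 and 2258 in Foxo1-deficient libraries for Gm9846. In each pair the second entry was far above the member in all 9 libraries, and the member's groups overlapped. RefSeq (GRCm38.p6) places Gm15772, Gm12191, Rpl34-ps1 and Gm9846 (there Rps27rt) on chromosomes other than those of Rpl26, Rpl30, Rpl34 and Rps27, and classes Gm15772 and Gm12191 as transcribed pseudogenes.

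The largest log2 changes among members came from these pairs and from Rps4y2: -1.37 for Rpl26 from LZ to DZ, 2.00 for Rpl26 and -1.39 for Rpl30 in Foxo1-deficient against DZ libraries, all without a call. With the FPKM of each pair added, a step chosen after the data were seen, Rpl26 and its partner changed by -0.29 from LZ to DZ (adjusted p = 0.368), Rpl30 by -0.15, Rpl34 by 0.08 and Rps27 by -0.13. The change against DZ was largest, 0.35, for the Rps27 pair in Foxo1-deficient cells (adjusted p = 0.223), whose sums were 2425, 2264 and 2259 against 1850.4, 2056 and 1570.4, above every DZ library. No summed pair passed in any comparison.

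**Figure D4:**
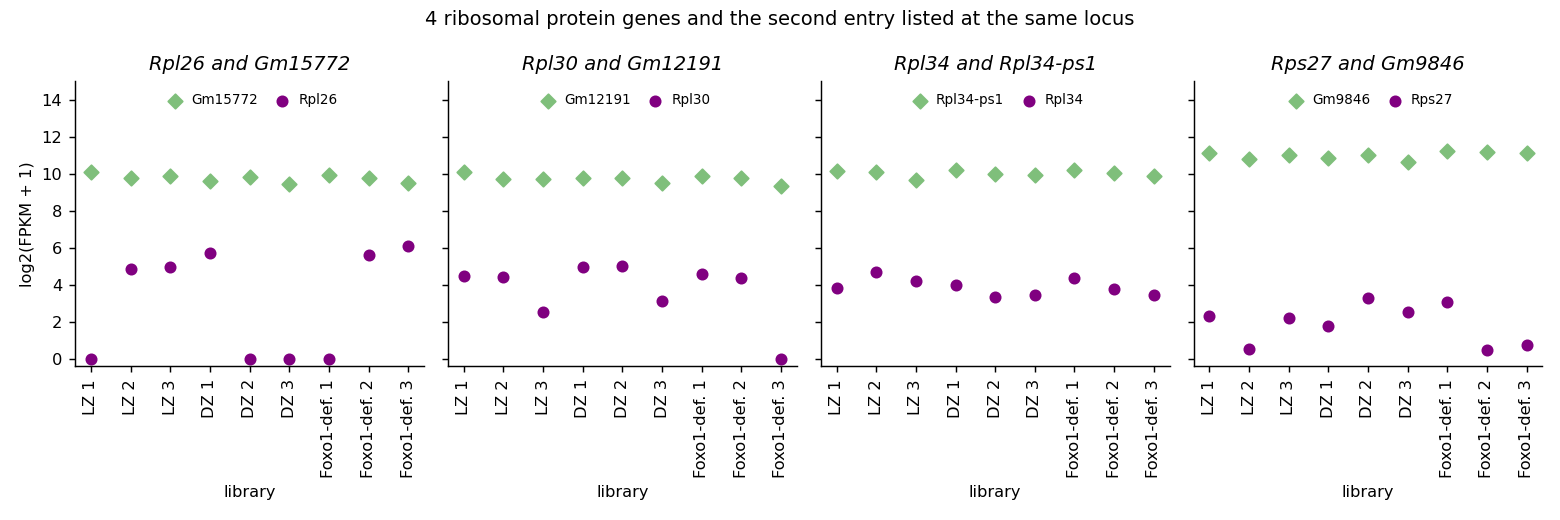
Log2(FPKM + 1) in the 9 libraries for Rpl26, Rpl30, Rpl34 and Rps27 (circles) and for the second entry the tables list at the same locus (diamonds). The second entries sit in flat bands. Gm15772, Gm12191 and Rpl34-ps1 are at the level of other ribosomal protein genes, and the mean of Gm9846 is above that of every member. The 4 members lie well below these bands, with Rpl26 near 0 in 4 libraries and Rpl30 in 1.

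Other entries lie within or across the loci of ribosomal protein genes. Small RNA entries (snoRNA or microRNA), 34 in all, lie within the loci of 23 members, and 7 members overlap another gene. Ribosomal protein genes have many processed pseudogenes, so values of near-identical copies are uncertain: the division of reads that fit several copies is, in the sources used here, not given. In the deposited tables, 601 of the 756 member values (79.5%) lie above the upper bound of their own confidence interval, and for 65 members this holds in all 9 libraries, so the bounds were not used as errors.

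Rpsa, Fau and Gnb2l1, ribosomal proteins whose names fall outside the rule, did not pass the test either. Rpsa, a small subunit protein also known as a laminin receptor, was 668, 645 and 607 in LZ, 643, 658 and 504 in DZ and 643, 637 and 546 in Foxo1-deficient libraries, with overlapping groups. Fau, made as a fusion with a relative of ubiquitin, had a mean FPKM of 1130.2 ± 194, 1046 ± 196 and 997 ± 268, in the order LZ, DZ, Foxo1-deficient (SD, n = 3). Gnb2l1, the scaffold protein Rack1 on the small subunit, was 666 ± 43.5, 632 ± 66.4 and 652 ± 20.1. The change farthest from 0 over these 3 genes and 3 comparisons was -0.21, for Fau in Foxo1-deficient against LZ libraries (adjusted p = 0.740).

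Among other mRNAs with a TOP start, 1 gene passed the test. Of 20 tested, 1 fell and 0 rose in DZ against LZ, with a median of -0.08, and 0 passed in the 2 comparisons with Foxo1-deficient cells. Of all tested genes 1.38% fell and 0.56% rose in DZ against LZ, with a median of -0.15. In Foxo1-deficient cells 1.56% of all tested genes passed against LZ and 2.85% against DZ. Eef1a1, the elongation factor that brings tRNA to the ribosome, was 2953, 2853 and 2607 in LZ, 3017, 2959 and 2557 in DZ and 2948, 2796 and 2604 in Foxo1-deficient libraries, above every ribosomal protein gene. The one that fell was Gas5, a noncoding TOP RNA that hosts snoRNAs, at 23.7, 31.4 and 33.1 in LZ, 15.1, 11.3 and 9.22 in DZ and 25.7, 16.2 and 24.2 in Foxo1-deficient libraries. It fell by 1.25 log2 in DZ (adjusted p = 0.0287), a call kept in 5 of 9 fits that each left out 1 library and ended without LZ library 2 or 3 or DZ library 2 or 3 (adjusted p up to 0.106). Among 17 tested regulators of TOP mRNA translation, 0 passed between the zones and 1 fell in Foxo1-deficient cells against LZ. Of all tested genes 1.94% passed between the zones, and 0.87% fell in Foxo1-deficient cells against LZ. The regulator that fell was Eif4a1, the helicase of translation initiation. Eif4a1 was 231, 255 and 240.3 in LZ, 164, 177 and 148 in DZ and 155, 163 and 129 in Foxo1-deficient libraries. It fell by 0.70 (adjusted p = 0.0294), a call kept in 1 of 9 such fits, that without DZ library 3, and ended by leaving out any of the other 8 (adjusted p up to 0.101). Both calls, of Gas5 and of Eif4a1, also ended in a fit without the libraries of the group not compared.

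Some ribosome assembly factors fell outside the light zone. Of 48 tested factors of assembly and export, 4 fell and 0 rose in DZ against LZ, with a median of -0.63 and 45 changes below 0. Of all tested genes 1.38% fell and 34.8% had a change above 0, and the median was -0.15, beside -0.10 for the ribosomal protein genes. In Foxo1-deficient cells against the same LZ libraries 2 fell and 0 rose, with a median of -0.59 and 42 below 0. There 0.87% of all tested genes fell, 48.0% had a change above 0 and the median was -0.02. Against DZ 0 passed, with a median of 0.08 beside 0.12 for all tested genes. The medians against LZ were between -0.49 and -0.44 for DZ and between -0.58 and -0.54 for Foxo1-deficient cells under the 3 other scalings. Gnl3, the nucleolar GTPase nucleostemin, was 26.0, 26.6 and 33.7 in LZ, 11.6, 11.0 and 8.43 in DZ and 14.0, 13.3 and 6.64 in Foxo1-deficient libraries. All LZ libraries were higher than all 6 others, and it fell by 1.39 in DZ (adjusted p = 0.0289) and by 1.33 in Foxo1-deficient cells (adjusted p = 0.0391). Ncl, the nucleolar protein nucleolin, was 88.0, 96.9 and 83.8 in LZ, 55.3, 59.2 and 45.0 in DZ and 52.2, 56.6 and 51.0 in Foxo1-deficient libraries, and it fell by 0.75 and 0.74 (adjusted p = 0.0330 and 0.0384). The other 2 that fell in DZ were Mybbp1a (-0.95) and Nop56 (-1.07), both nucleolar. The 4 calls in DZ were kept in 2 to 4 of 9 fits that left out 1 library: they ended without any of the LZ libraries and without DZ library 1 or 3, those of Gnl3 and Ncl also without DZ library 2, and that of Ncl without Foxo1-deficient library 1 (adjusted p up to 0.114). The 2 calls in Foxo1-deficient cells were kept in 1 or 2 of 9 (adjusted p up to 0.144), and each ended without any of the LZ libraries, DZ library 1 or 2, or Foxo1-deficient library 2 or 3, that of Ncl also without Foxo1-deficient library 1. Each of these 6 calls also ended under at least 1 other setting, such as no filter (Gnl3 and Nop56 in DZ, Gnl3 in Foxo1-deficient cells) or only the compared groups in the fit (Ncl and Mybbp1a in DZ, both genes in Foxo1-deficient cells). The difference between this list and the ribosomal protein genes was not tested.

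Of 14 genes for the transcription of ribosomal RNA, 0 passed in any comparison, with medians of -0.20, -0.22 and 0.04 in the order DZ against LZ, Foxo1-deficient against LZ and Foxo1-deficient against DZ. Of 13 tested genes of ribosome surveillance, such as Mdm2 and factors that clear stalled ribosomes, 0 passed, with medians of -0.15, 0.12 and 0.22. Of all tested genes 1.94%, 1.56% and 2.85% passed in the same order, with medians of -0.15, -0.02 and 0.12.

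**Figure D5:**
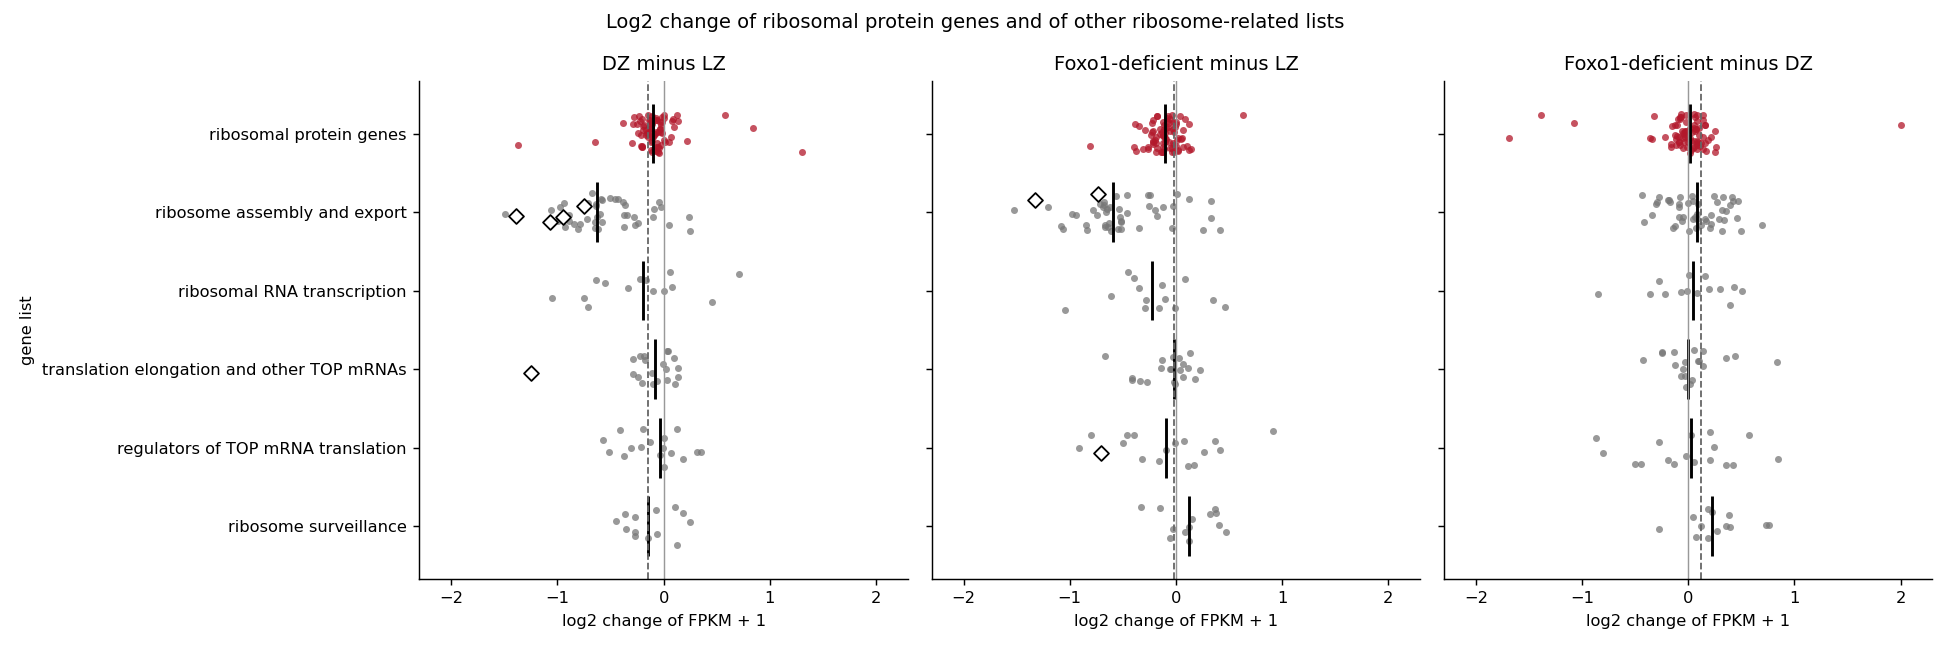
Log2 change of FPKM + 1 of each tested gene in the ribosomal protein set and in 5 related lists, 1 panel per comparison, with vertical bars at list medians, diamonds for genes with an adjusted p under 0.05, and a dashed line at the median of all tested genes. Against LZ the assembly and export list lies to the left of the ribosomal protein genes in both panels, with medians of -0.63 and -0.59 against -0.10 and -0.10, and it does not in the third.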

How the data were processed

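RNA of 9 libraries was measured, and the analysis started from the authors' gene tables. Per the file headers, the authors deposited FPKM with confidence bounds and a status per gene. Reads were handled with TopHat2 2.0.8 and Cufflinks 2.1.1 on mm9, per the submitters' processing notes. Library preparation used the NEBNext Ultra kit, per the labels' protocols. The tables hold no counts, so depth is unknown, and no interval for counting error is given.

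The 23700 entries were joined by symbol and locus. Left out were 716 entries of 250 repeated symbols and 7 genes with a failed estimate, which left 22977. Of these, 10004 reached FPKM 1 in 3 or more libraries and were tested with limma 3.58.1 in R 4.3.3, with an intensity trend, on log2(FPKM + 1), which understates changes of low genes. Groups follow the labels, and replicate numbers were not used as a block. Adjusted p-values are two-sided limma values over all tested genes, with a threshold of 0.05. The procedure was tested on simulated data. Alternatives changed the pseudocount, filter, scaling, block and libraries.

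Genes named are the extremes of level and change, genes listed at 0, copies with the gene they resemble, the stalk, 7 genes of known roles, and called genes of other lists; Rpl14, Rpl15, Rpl27, Rpl38, Rps2 and Rps15a, and genes named for non-overlapping libraries, start sequence or correlation, were added after their values were seen. Members and lists were chosen with earlier results of these data known. Values of a few single genes are not reported here. Sequences are from RefSeq (GRCm38.p6). Other coordinates are as the tables write them, on mm9.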

Additional observations from a re-analysis of the deposited data

How the results depend on the processing

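The count of 0 ribosomal protein genes past the threshold held in all 3 comparisons under another pseudocount, other filters, quantile normalization, only the compared groups in the fit, centring on the ribosomal protein genes and summed shared-locus entries (the last 2 chosen after seeing the data). It became 1, Rpl14, in Foxo1-deficient against DZ libraries under median centring and under rescaling to the other tested genes. The median log2 change of tested ribosomal protein genes, DZ minus LZ, moved to 0.0917 (median centring) and 0.0833 (rescaling) from -0.10, and to -0.17 (median centring) in Foxo1-deficient against DZ libraries, by the construction of these scalings. Leaving out 1 library at a time gave 0 calls throughout and medians of -0.16 to 0.03 (DZ against LZ), -0.16 to -0.02 (Foxo1-deficient against LZ) and -0.12 to 0.11 (Foxo1-deficient against DZ), where DZ library 3 turned the sign of the first and the third, and Foxo1-deficient library 1 or 2 that of the third. The replicate block gave 0 calls and medians of -0.10, -0.10 and 0.01. The labels do not say that the numbers pair the libraries. The design allows for pairing, since the mice received B cells of both genotypes. Deviations of same-numbered libraries correlated at -0.07 to 0.08 (median 0.06, 9 pairs) and those of other libraries at -0.11 to 0.05 (median -0.01, 18 pairs). Of 9 libraries, 8 correlated best with one of their own number. Deviations from a group mean sum to 0, and 1 pair can count for both of its libraries, so these matches are not independent. Whether the libraries are paired was not tested. The block lowered the number of calls over all genes by less than 1.5 times in each comparison. The share of summed FPKM was 21.4% in DZ over the tested genes only, and, without the 10 other genes of highest mean FPKM, 22.5% (LZ), 22.9% (DZ) and 21.8% (Foxo1-deficient).

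Over all genes, the number called was 194 from LZ to DZ, 122 with only the compared groups, 109 with no filter and 72 to 86 without 1 of their libraries. It was 156 in Foxo1-deficient cells against LZ, 99 with a pseudocount of 0.1, 96 with a minimum FPKM of 5, 58 with only the compared groups and 48 to 96 in the 7 fits without 1 library that moved it by over 1.5 times. Against DZ it was 285, and 127 to 164 in 4 such fits. Among assembly and TOP genes, the replicate block ended the calls of Gas5 in DZ (adjusted p = 0.0504) and of Gnl3 in Foxo1-deficient cells (adjusted p = 0.0529). The tables hold no counts, so the limit that depth sets is unknown.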
